A study of Mus musculus with 12 samples.

Results

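Transcripts that were nearly absent from mouse embryonic stem cells (ESC) of one Chd8 genotype and clearly present in those of another are described here. They were selected on measured values: 21 of the 55419 transcripts in the files had an estimated count of at most 1 in both ESC libraries of one genotype and of at least 100 in both ESC libraries of another. The rule took transcripts longer than 300 and shorter than 10000 bases and left out 7 stretches of the deposited row order, so 41795 transcripts could be chosen, of which 8770 reached 100 in both ESC libraries of a genotype. A genotype under the lower limit is called off below, one over the upper limit on, and any other between. The ESC were grown in 2i medium, and neural progenitor cells (NPC) were derived from them by differentiation. Each cell type was wild type (WT), CHD8+/- (HET) or CHD8-/- (KO), and each of these 6 groups had 2 libraries. No sample label names a strain, a clone, a culture or a further allele, and none says whether replicates were grown apart, so the spread that p-values rest on is that between libraries and can be technical.

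CHD8 is an ATP-dependent chromatin remodeller of the CHD family, and loss of a single copy of its gene in people is linked to autism and large head size. ESC in 2i medium are held in a naive pluripotent state, and NPC are dividing precursors of neurons and glia. The counts come from kallisto, which assigns a read to all transcripts it is compatible with and then splits it between them by an iterative estimate. Transcripts of a gene that share most of their exons therefore compete for the same reads, and the estimate for one of them can fall to almost nothing while its partner takes the reads. The files identify transcripts by UCSC-style codes and pair none with a gene, so the codes stand for the transcripts throughout, and neither Chd8 itself nor markers of ESC or NPC could be checked.

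Total estimated counts per library ran from 9062447 to 14766212. In ESC they were 9062447 and 9840544 in WT, 12884157 and 13432274 in HET, and 14220515 and 14766212 in KO. In NPC they were highest in WT, at 12392099 and 13150215, and ran from 9089955 to 10813941 in HET and KO. Values below are CPM, estimated counts scaled to a TMM-adjusted library total of 1000000, a scale that corrects for depth and not for transcript length, so levels of different transcripts are not compared. In bulk RNA, fewer cells with a transcript and less of it per cell cannot be told apart.

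The 21 transcripts gave 25 pairs of an off and an on genotype, since 4 of them had 2 pairs. WT was off in 13 transcripts and KO was on in 14. The commonest pattern, in 6 transcripts, was WT off, HET between and KO on. In 4 transcripts HET was off and KO on with WT between, in 3 WT was off and HET on with KO between, and in 3 WT was off with both other genotypes on. In 2 transcripts KO was off and HET on with WT between, and uc007dzd.1 was off in both WT and HET and on in KO. WT was the on genotype in 2 transcripts only, uc009oll.1 against KO and uc008ofy.1 against HET. By pair, 10 were WT off with KO on, 6 WT off with HET on, 5 HET off with KO on, 2 KO off with HET on, 1 HET off with WT on and 1 KO off with WT on.

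The chosen values were far apart. Of the 44 off values, 14 were exactly 0 and the highest was 0.259 estimated counts, which is 0.0268 CPM. The 48 on values ran from 104 to 606 estimated counts, or 8.69 to 50.7 CPM with a median of 14.0. Averaged over the ESC libraries, the transcripts had a median of 6.92 CPM, where the 8770 transcripts that were on in some genotype had 26.2. Just inside the upper limit was uc008ofy.1, with 103.7 estimated counts in its lower WT library, and just outside was uc012dcy.1, which was off in HET and had 99.95 in its lower KO library. Just inside the lower limit was uc008ekv.1, at 0.2592 in its higher WT library, and just outside was uc009jjc.1, at 1.199 in HET and at least 116.5 in KO.

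**Figure D1:**
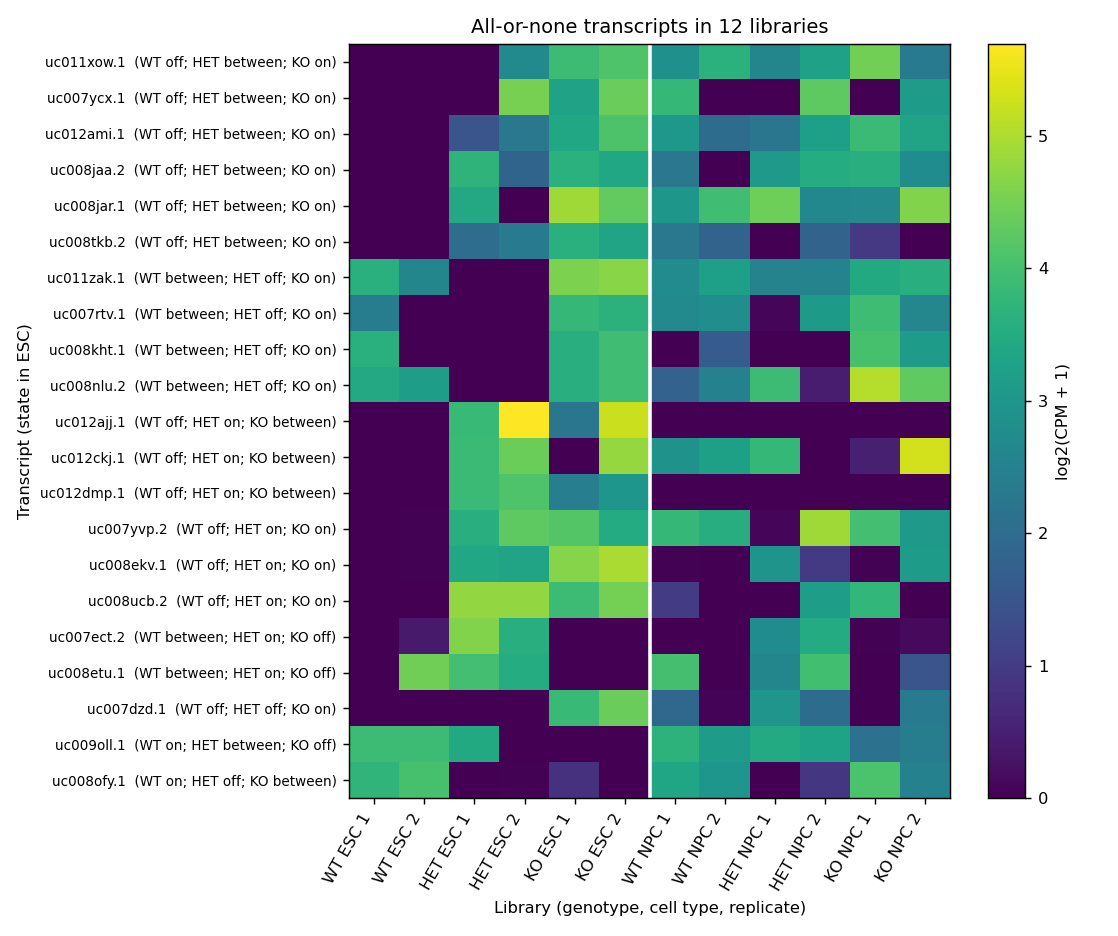
Level of each of the 21 transcripts (rows, with the ESC state that chose it) in each of the 12 libraries (columns), as log2(CPM + 1) by colour, with ESC left of the white line and NPC right of it. Off genotypes are dark in both ESC libraries, and the same genotypes are dark, mixed or bright in NPC, where uc012ajj.1 and uc012dmp.1 are dark throughout.

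Among the transcripts that were off in WT ESC, uc008ucb.2 had 26.2 and 26.3 CPM in HET and 13.9 and 21.7 CPM in KO. All 4 libraries with an altered Chd8 copy lay above both WT libraries. uc008ekv.1 had 9.49 and 9.03 CPM in HET and 24.2 and 30.2 CPM in KO, so its 3 genotypes did not overlap. uc008jar.1 had 28.4 and 19.1 CPM in KO, but its HET libraries were split, at 9.89 CPM and at 3.99e-06 CPM. uc012ckj.1 had 13.7 and 20.3 CPM in HET and was split in KO, at 4.05e-05 and 26.7 CPM. These splits are as wide as the limits that chose the transcripts. In 5 of the 21, libraries of a single ESC genotype stood on both sides of the limits, 1 at most 1 and the other at least 100. They were 1 in WT, 3 in HET and 1 in KO. Of the 41795 transcripts that could be chosen, 149 did so in WT ESC, 100 in HET and 119 in KO. That set was not matched to the 21 in level.

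Of the remaining patterns, uc007dzd.1 had 13.3 and 20.1 CPM in KO and at most 0.00484 CPM in any WT or HET library. uc011zak.1 was off in HET and had 11.2 and 5.16 CPM in WT and 22.6 and 24.6 CPM in KO, so the genotype with 1 altered copy lay below both others. uc007ect.2 showed the reverse order. It had 23.5 and 11.1 CPM in HET, at most 0.335 CPM in WT and at most 0.00765 CPM in KO. uc008etu.1 had 14.8 and 10.5 CPM in HET, was off in KO and was split in WT, at 8.97e-07 and 21.0 CPM. uc009oll.1 had 14.0 and 13.9 CPM in WT, 10.01 and 0.0 CPM in HET, and was off in KO. uc008ofy.1 had 12.3 and 15.5 CPM in WT, was off in HET, and had 0.759 and 1.04e-07 CPM in KO. All these ESC levels are a description with no test, since the rule used them. Of the 25 pairs, edgeR called 2 in ESC, uc012ami.1 (KO against WT) and uc011zak.1 (KO against HET), where it called 1.21% of 30021 tested transcripts between KO and WT, 0.0333% between HET and WT and 0.00333% between KO and HET. Nothing is read from that count.

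The direction of the pairs is set out here beside depth, whose part in it was not tested. In ESC, where WT was the shallowest genotype, WT was off in 16 pairs and on in 2, and 7 pairs were between HET and KO. In NPC, where WT was the deepest, the same limits gave 40 transcripts and 44 pairs, with WT off in 9, WT on in 23 and 12 between HET and KO. None of those 40 transcripts was among the 21. With counts scaled to the smallest library of each cell type, an alternative that for NPC was chosen after seeing the data, ESC kept 13 pairs from 11 transcripts, 9 with WT off and 2 with WT on. The scaled NPC counts gave 28 pairs from 26 transcripts, 7 with WT off and 10 with WT on.

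Replicates of a group also differed by as much as these limits. Counts here are over the 41795 transcripts that could be chosen. Between the WT ESC libraries, 149 transcripts were at most 1 in one library and at least 100 in the other. Of these, 93 were off in replicate 1 and 56 in replicate 2. Between the HET ESC libraries there were 100 such transcripts and between the KO ESC libraries 119. In NPC the corresponding counts were 152 in WT, 121 in HET and 109 in KO. Single ESC libraries of different genotypes gave 101 to 124 transcripts off in WT and on in KO and 82 to 101 off in WT and on in HET. For KO off and HET on the range was 51 to 70, and for HET off and KO on 55 to 77. With WT on, the ranges were 23 to 68 for HET off and 29 to 76 for KO off. Replicates gave 43 to 93 in a single order in ESC, and of these 6 ranges that for WT off and KO on alone lay wholly above those counts.

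**Figure D2:**
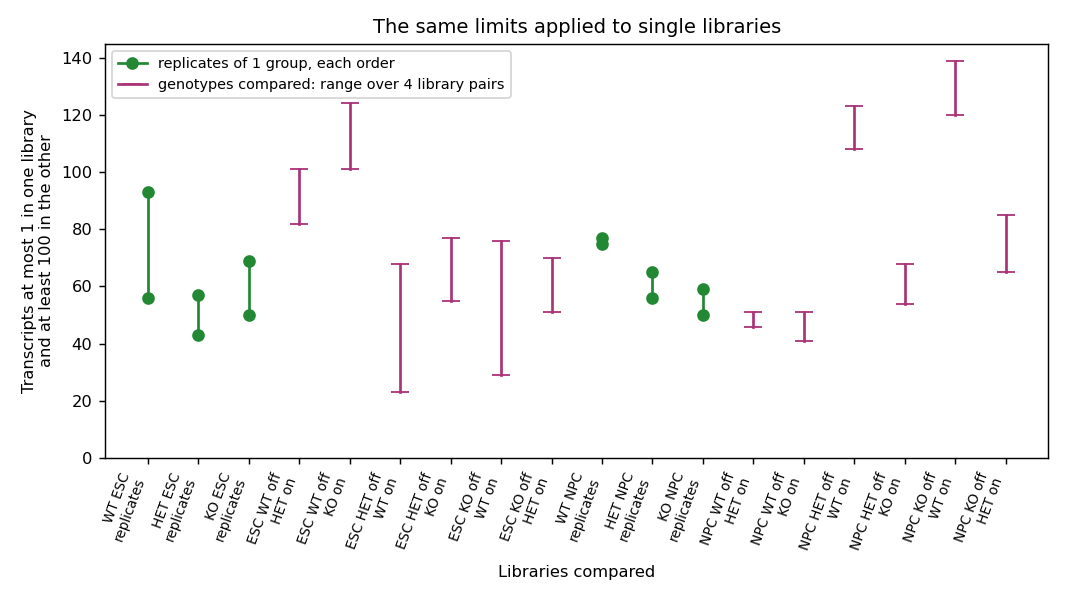
Number of transcripts at most 1 in one library and at least 100 in another (vertical axis), for the replicates of each group in both orders (green points) and for single libraries of different genotypes (purple, lowest to highest of 4 library pairs). Replicate counts lie between 43 and 93, and the genotype counts run from 23 to 139, highest for NPC libraries with KO off and WT on.

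NPC libraries were not used to choose the transcripts. In NPC, 16 of the 21 reached 100 estimated counts in some library and 7 did so in both libraries of a genotype. Two-sided edgeR tests called 0 of the 25 pairs in NPC at an adjusted p under 0.05, and the lowest adjusted p was 0.313. Over all 30021 tested transcripts, edgeR called 0.0766% as higher in KO than WT, 0.00999% as higher in HET than WT, 0% as higher in WT or in KO than in HET, 0.137% as higher in WT than KO and 0.00666% as higher in HET than KO. Without adjustment, 6 pairs from 5 transcripts had an edgeR p under 0.05, and all 6 were in the ESC direction. In either direction, 3799 of the 30021 tested transcripts had such a p between KO and WT in NPC. The count was 2372 between HET and WT and 2216 between KO and HET. DESeq2 called 3 pairs. They were uc008ekv.1 in HET and in KO against WT (DESeq2 adjusted p = 0.0166 and 0.00742) and uc007ect.2 in HET against KO (DESeq2 adjusted p = 0.000847). The call of uc008ekv.1 in KO rested on 1 library, with 0.174 and 89.9 estimated counts in KO NPC and 0.238 and 0.0 in WT NPC. limma called none, with 7 pairs at an unadjusted p under 0.05. No share over all tested transcripts is given for DESeq2 or limma, so nothing is read from those counts. With the on genotype minus the off genotype, the fitted log2 difference was above 0 in 18 pairs, below 0 in 5 and 0 in 2, with a median of 1.14. Leaving out the 2 pairs with at most 3 counts in each genotype, and with the 1 pair at 0 counts in its off genotype set to a floor of 3 counts over that group, the median of the other 23 was 1.33. The median over all tested transcripts was between -0.021 and 0 in the 3 NPC comparisons.

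The NPC groups of a pair did not overlap, with the on genotype above, in 11 of 25 pairs, from 10 transcripts. The order was opposite in 1 pair, and 13 pairs overlapped. The opposite pair was 1 of the 10 with WT off and KO on, where 25.0% of all tested transcripts had WT above KO in NPC. Of pairs with WT off and KO on, 3 of 10 kept the order without overlap, where 23.3% of all tested transcripts had KO above WT in NPC. Of pairs with WT off and HET on, 1 of 6 did so, against 19.9% with HET above WT. The counts were 3 of 5 for HET off and KO on, against 20.2% with KO above HET, and 2 of 2 for KO off and HET on, against 20.3% with HET above KO. The single pair with HET off and WT on also kept its order, where 20.8% of transcripts had WT above HET, as did the single pair with KO off and WT on, where 25.0% had WT above KO. The share of pairs that kept their order was thus near the background when WT was off and above it in the 9 other pairs, of which 7 kept it. Those 9 pool sets of 1 to 5 pairs, a grouping not set in advance, and the difference from the pairs with WT off was not tested. With counts scaled to the smallest ESC library, 4 of 13 pairs in all kept their order.

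**Figure D3:**
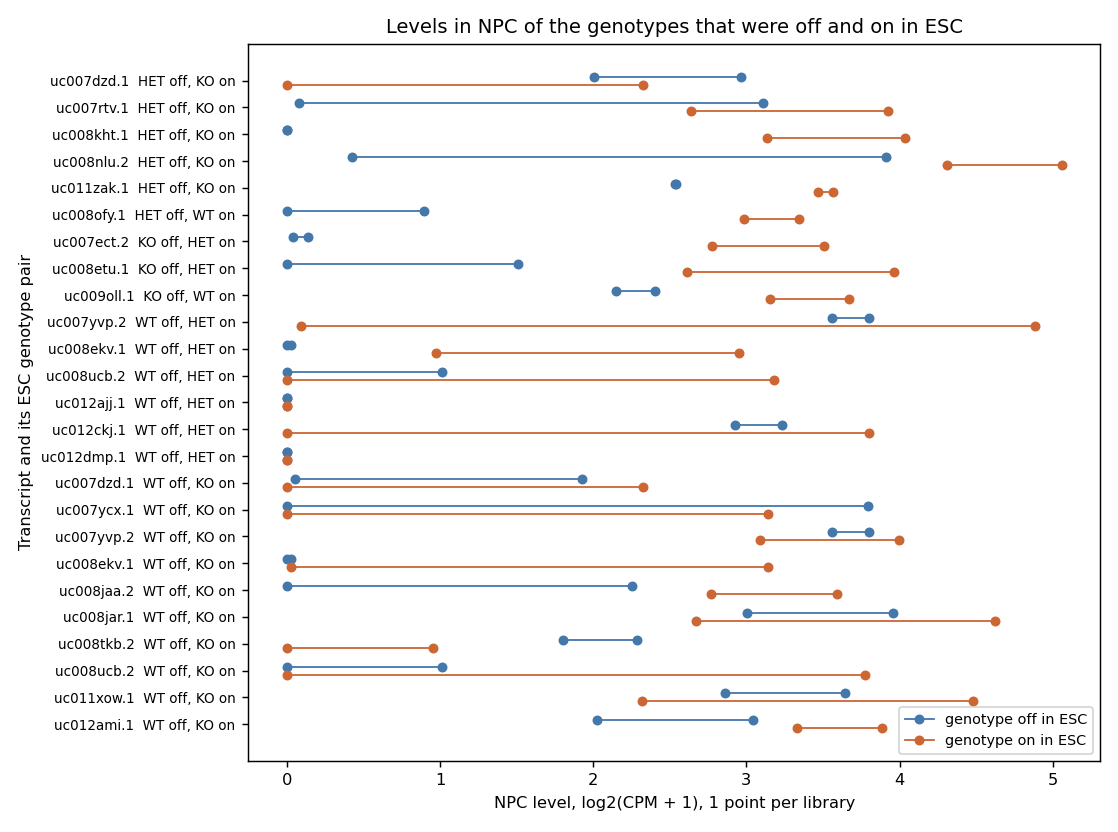
NPC level of each pair as log2(CPM + 1), with 1 point per library joined by a line, blue for the genotype that was off in ESC and orange for the one that was on. The orange points lie wholly to the right in 11 pairs, wholly to the left in uc008tkb.2, and overlap the blue ones in 13.

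uc007ect.2 had the pair with the lowest adjusted p in NPC. It had 5.86 and 10.3 CPM in the HET NPC libraries, 0.03 and 0.1 CPM in KO and at most 0.00625 CPM in WT. Both cell types therefore showed it in HET and almost not at all in WT or KO (HET against KO in NPC, edgeR adjusted p = 0.313). uc011zak.1 had 4.8 and 4.83 CPM in HET NPC, 5.72 and 8.25 CPM in WT and 10.04 and 10.8 CPM in KO, the same order of genotypes as in ESC with all 3 groups apart. The HET level was no longer near 0, and KO exceeded HET by 1.12 on the log2 scale (SE 0.39, edgeR adjusted p = 0.579). uc008ofy.1 had 0.0 and 0.857 CPM in HET NPC and 9.15 and 6.9 CPM in WT, a log2 difference of 4.25 (SE 1.58, edgeR adjusted p = 0.564). Its KO libraries, almost empty in ESC, had 16.0 and 4.69 CPM in NPC.

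uc008ekv.1 had 0.0166 and 0.0 CPM in WT NPC, 6.72 and 0.962 CPM in HET and 0.0174 and 7.81 CPM in KO. HET lay above WT in every library, while KO kept its order above WT by 0.0174 against 0.0166 CPM only (edgeR adjusted p = 0.549 for HET and 0.315 for KO). uc008kht.1, the shortest of the 21 at 305 bases and named after its values were seen, had 0.0 CPM in both HET libraries of both cell types. In KO it had 10.9 and 14.5 CPM in ESC and 15.4 and 7.78 CPM in NPC (KO against HET in NPC, edgeR adjusted p = 0.633). WT was split for it in ESC, at 11.2 and 0.0 CPM, and had 0.0 and 2.15 CPM in NPC. uc009oll.1 kept WT above KO, at 11.8 and 7.89 CPM against 3.43 and 4.29 CPM, although KO was no longer off (log2 difference 1.36, SE 1.47, edgeR adjusted p = 0.81). uc008nlu.2 had 32.3 and 18.8 CPM in KO NPC and was split in HET, at 14.0 and 0.345 CPM (log2 difference 1.83, SE 1.19, edgeR adjusted p = 0.808).

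uc008tkb.2 went against its ESC order. It was off in WT ESC, with 11.3 and 9.04 CPM in KO ESC, but had 3.88 and 2.49 CPM in WT NPC and 0.936 and 2.41e-06 CPM in KO NPC. Both KO libraries lay below both WT libraries in NPC, with a log2 difference, KO minus WT, of -2.81 (SE 1.81, edgeR adjusted p = 0.6). WT lay above KO without overlap in 25.0% of all tested transcripts in NPC, so such an order is common.

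Several transcripts were not off in any NPC genotype or were unstable between NPC replicates. In 11 pairs the genotype that was off in ESC had more than 1 estimated count in both NPC libraries, in 8 it had at least 100 in one of them, and in 5 it was off again. uc008jar.1 had 7.03 and 14.5 CPM in WT NPC, 20.8 and 5.3 in HET and 5.36 and 23.6 in KO, with every genotype overlapping the others. uc007dzd.1 had 2.81 and 0.0352 CPM in WT NPC, 6.81 and 3.01 in HET and 8.42e-07 and 4.0 in KO, so the KO libraries that were high in ESC did not stand above the others. Only 6 of the 21 had more than 1 estimated count in all 6 NPC libraries. Among the 8770 transcripts that were on in an ESC genotype, 0.855% had NPC replicates of a genotype on both sides of the limits. That set was not matched to the 21 in level, with an ESC median of 26.2 CPM against 6.92. Of the 21, 5 did so. uc012ckj.1 was one of them, with 12.9 and 7.39e-05 CPM in HET NPC, 0.416 and 38.6 CPM in KO and 6.59 and 8.41 CPM in WT. uc008etu.1 was another, at 15.1 and 0.000603 CPM in WT NPC, with 5.12 and 14.6 CPM in HET and 1.67e-07 and 1.85 CPM in KO. At the other end, 2 transcripts were at most 1 in every NPC library, and both are named after their values were seen. uc012ajj.1 had 13.5 and 50.7 CPM in HET ESC and 3.73 and 36.9 CPM in KO ESC, and was listed at 0 in all 6 NPC libraries. uc012dmp.1 had 13.7 and 16.5 CPM in HET ESC and at most 0.000508 CPM in NPC.

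Neighbouring rows of the deposited tables often carry consecutive codes and near-equal lengths, as transcripts of a gene do, although no file says which rows share a gene. Among the 21, 12 (57.1%) had an adjacent row within 5% of their length, where 36.6% of the 8770 transcripts did. None of the 21 had whole-number estimates (within 0.001) in all ESC libraries, where 19.0% of the 8770 did; a fractional estimate arises when reads are shared with another transcript. The 21 were also longer, with a median of 4276 bases (305 to 8461) against 3002.

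An adjacent row was lower by at least 1 on the log2(CPM + 1) scale where the transcript was higher, in 4 of 21 transcripts and 4 of 25 pairs. Over all transcripts and the 6 ordered genotype pairs, 5.73% had an adjacent row lower by as much. That share was taken whatever the transcript itself did, so it is not a share of opposite differences. Beside uc007ect.2 (7060 bases), uc007ecu.2 (7069 bases) had 27.5 and 31.3 CPM in KO ESC and 0.884 and 11.5 CPM in HET ESC, a log2 difference of -2.08 between the means. Beside uc009oll.1 (3026 bases), uc009olm.1 (2702 bases) had 15.2 and 21.7 CPM in KO ESC and 0.189 and 6.76 CPM in WT ESC, a difference of -2.12. Beside uc008nlu.2 (7814 bases), uc008nlt.2 (7977 bases) had 8.62 and 14.7 CPM in HET ESC and 4.57 and 2.06e-09 CPM in KO ESC, a difference of -1.94. In each of these, the libraries of the off genotype lay above those of the on genotype for the adjacent row, the reverse of the chosen transcript. The remaining case rested on a low row. uc011zaj.1 (4671 bases), beside uc011zak.1 (4665 bases), was at 0.000351 and 5.68 CPM in HET ESC and at 0.0 and 1.52 CPM in KO ESC, which overlap.

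Adjacent rows of higher level can offset a transcript without a 2-fold change of their own, so CPM differences were also compared. In 10 pairs from 9 transcripts, a grouping chosen after the values were seen, both adjacent rows together were lower in the on genotype by at least 50% of what the transcript was higher. Of all tested transcripts and genotype pairs that differed by at least as much as the smallest of the 25 differences (9.25 CPM), 13.9% had such neighbours. Nothing is read from that share, since the rule used this contrast. Of the other 15 pairs, the neighbours were lower by less than that in 4, within 5% of the transcript's difference in 2 and higher in 9. uc008ucb.2 (3109 bases) was higher in HET than WT ESC by 26.3 CPM, and its neighbours uc008uca.2 (3148 bases) and uc008ucc.2 (3342 bases) were lower by 27.0 CPM together. Summed, the 3 rows had 81.3 CPM in WT, 80.6 in HET and 79.7 in KO, so the sum hardly moved while the transcript went from off to on. uc008jaa.2, named after its values were seen, was higher by 10.5 CPM in KO than WT and its neighbours lower by 10.6 CPM. uc008etu.1 was higher by 12.7 CPM in HET than KO and its neighbours lower by 12.9 CPM. For uc008nlu.2 the values were 12.7 CPM higher and 10.5 CPM lower, for uc009oll.1 13.9 and 19.0 CPM, and for uc007ect.2 17.3 and 23.2 CPM. uc007yvp.2, also named after its values were seen, did so in HET only, where it was higher than WT by 14.7 CPM and its neighbours lower by 11.8 CPM. uc008ekv.1 differed between genotypes. In HET it was higher than WT by 9.25 CPM and its neighbours lower by 10.6 CPM. In KO it was higher by 27.2 CPM, and the mean of its neighbours differed by 1.55 CPM only. The adjacent uc008ekw.1 had 28.2 and 33.4 CPM in KO ESC, within its WT values of 24.2 and 34.3 CPM. uc012dmp.1 was higher by 15.1 CPM in HET and the mean of its neighbours lower by 27.5 CPM, more than the transcript itself gained. That fall was not separated between libraries. The adjacent uc008vdn.2 had 110.0 and 70.5 CPM in WT ESC and 73.6 and 52.1 CPM in HET ESC, which overlap. In these 10 pairs the ratio of sums ran from 0.807 to 1.15.

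**Figure D4:**
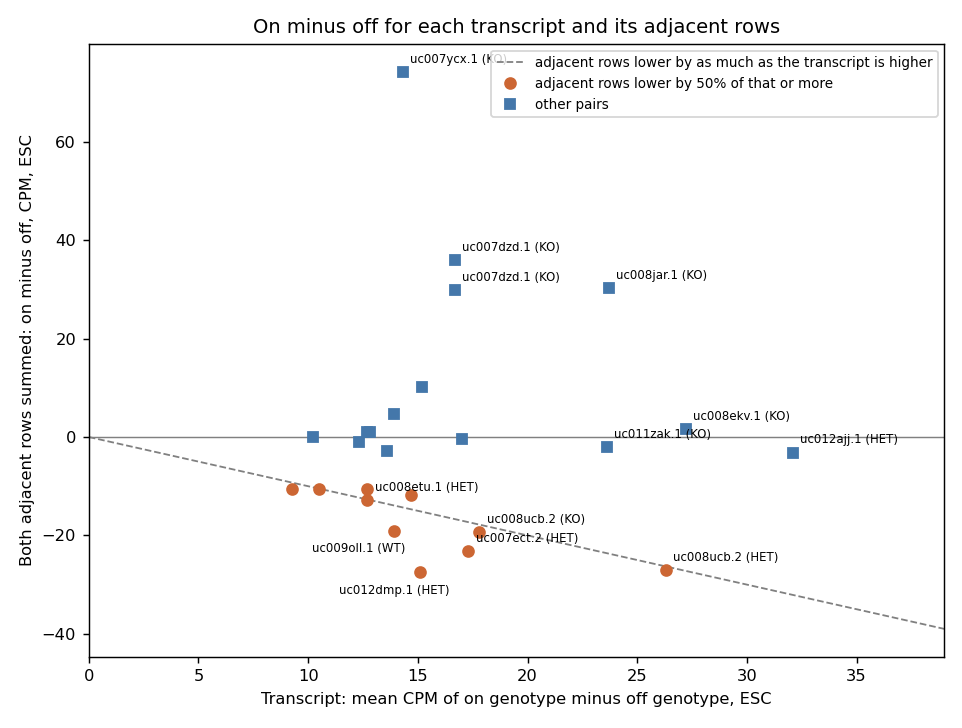
For each of the 25 pairs, the ESC difference (on minus off genotype, mean CPM) of the chosen transcript on the horizontal axis and of its 2 adjacent rows summed on the vertical axis, with the on genotype in brackets at labelled points. The 10 orange points lie along or below the dashed line of equal and opposite differences. For uc007ycx.1, uc007dzd.1 and uc008jar.1 the means of the adjacent rows were higher too, although those of uc007dzd.1 overlapped between KO and WT libraries.

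Over all pairs, the sum of a transcript and both adjacent rows had an on to off ratio (with 1 CPM added) of 0.807 to 12.1, with a median of 1.36. The ratio stayed within 2-fold in every pair of 13 of the 21 transcripts, where 96.0% of all transcripts and genotype pairs considered were within it. In the other 8 the sum followed the transcript, with ratios of 4.79 to 12.1. Their adjacent rows were low but not all empty, as uc008agu.2 beside uc012ajj.1 had 5.59 and 7.62 CPM in WT ESC. The mean sum in the off genotype was at most 6.64 CPM. These 8 were uc012ajj.1, uc012ckj.1, uc012ami.1, uc008tkb.2, uc008ofy.1, uc011zak.1, uc007rtv.1 and uc008kht.1. When 3 rows on each side were summed, uc011zak.1 alone kept a ratio over 2, at 2.53. In 9 pairs from 8 transcripts the adjacent rows together had a higher mean in the on genotype as well, by more than 5% of the transcript's own difference. For uc007dzd.1 they were higher in KO than HET ESC by 29.9 CPM and than WT by 36.0 CPM, but the KO and WT libraries overlapped. The adjacent uc007dze.1 had 127.0 and 20.6 CPM in WT ESC and 95.2 and 90.0 CPM in KO ESC. Between KO and WT the adjacent rows were also higher for uc008jar.1 by 30.3 CPM, for uc007ycx.1 by 74.2 CPM and for uc011xow.1 by 10.1 CPM. For uc008ofy.1 they were higher in WT than HET by 4.72 CPM. For uc012ami.1, uc008kht.1 and uc008ekv.1 their mean was higher in KO by 0.948 to 1.55 CPM, with libraries of the on and off genotypes that overlapped.

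In NPC, which the rule did not use, a transcript's share of its 3-row sum varied between replicates as well as between genotypes. Whether the rows shared reads was not tested. uc008nlu.2 and uc008nlt.2 differed in opposite directions between the HET NPC replicates. Replicate 1 had 14.0 CPM of uc008nlu.2 and 0.001 CPM of uc008nlt.2, while replicate 2 had 0.345 and 28.7 CPM. The 3-row sum differed too, at 15.4 and 29.8 CPM. In KO NPC uc008nlu.2 held 100% and 96.9% of the 3-row sum, and in WT NPC 13.3% and 52.0%. uc008ucb.2 held between 0% and 22.9% of its sum in NPC, and the KO libraries alone spanned that range. Its sum itself stayed between 55.4 and 77.3 CPM in the 6 NPC libraries. For uc007ect.2 the share was 17.0% and 20.3% in HET NPC and at most 0.293% in any WT or KO NPC library, where in ESC it had been 96.4% and 48.8% in HET. The sum of its rows in NPC was 34.5 and 50.9 CPM in HET, 44.3 and 59.5 CPM in WT and 29.8 and 34.2 CPM in KO, so HET overlapped WT and lay just above KO. In NPC, then, its share of the reads set HET apart from both other genotypes. The 3 rows together did not do so for WT, and for KO only by 34.5 against 34.2 CPM, a difference that was not tested.

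Across the 6 NPC libraries, the highest and lowest sums (with 1 CPM added) differed by less than 2-fold in 10 of the 21 transcripts, and the transcript's own levels in 2. Among the 8770 transcripts that were on in an ESC genotype, a set not matched to the 21 in level, the corresponding shares were 88.1% for the sum and 74.1% for the transcript. Of the 9 transcripts whose neighbours offset them in ESC, 6 had NPC sums within 2-fold and 1, uc012dmp.1, had its own level within it because it was close to 0 throughout. The widest sum among them was that of uc008ekv.1, at 0.601 and 20.6 CPM in WT NPC, 30.6 and 1.1 CPM in HET and 34.1 and 31.9 CPM in KO. For that transcript the neighbouring rows together did not hold a steady level either.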

How the data were processed

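Each deposited file is a kallisto table of 1 library whose columns, per the file headers, are a transcript's length, effective length, estimated (expected) counts and TPM. Stranded libraries were made with a SMARTer kit from RNA depleted of rRNA, per the labels' protocols. The submitters' processing notes name cutadapt 1.16, build mm9 and kallisto, whose version the sources used here do not give. The authors' estimated counts were used for all main results, and their deposited TPM values in alternatives only.

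The rule and the lists were chosen with earlier results of these data known. Counts were rounded for the tests. Of 55419 transcripts, 252 in 99 sets had equal values and were merged, and 30021 passed filterByExpr (minimum count 10), all 21 chosen transcripts among them. Having passed through the genotype in which they were on, these give no support by number. edgeR 4.0.16 in R 4.3.3 (TMM, quasi-likelihood, 1 mean per group over 12 libraries, 6 residual degrees of freedom, two-sided, Benjamini-Hochberg over all tested transcripts) was the main test, with DESeq2 1.42.0 and limma 3.58.1 (TPM, pseudocount 0.5) as alternatives, and the script was tested on simulated data. Transcripts took the place of genes. CPM are estimated counts divided by the TMM-scaled library total. ESC comparisons and adjacent rows (order of the files) were described with no test.

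Transcripts were named by this rule: for each ordered pair of genotypes, the 2 with the highest minimum on level; up to 3 whose adjacent row was lower by the most CPM; any that edgeR called in NPC; up to 2 with an NPC order against ESC; and those at the limits. Others are said to be named after their values were seen, or are named as exceptions in counts and lists. The marker lists were not run because no code matched a gene name.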

Additional observations from a re-analysis of the deposited data

Results flagged for a closer look

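For uc008tkb.2, every KO library was above every WT library in ESC and every KO library was below every WT library in NPC. The NPC log2 difference, KO minus WT, was -2.81 (SE 1.81, edgeR adjusted p = 0.6). In NPC, 25.0% of all tested transcripts had WT above KO without overlap. The difference between the cell types was not tested, since the ESC values chose the transcript.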

How the results depend on the processing

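The number of transcripts, 21, followed the limits and the libraries. Below, each setting is given with the transcripts chosen, the pairs that kept their order in NPC without overlap, the pairs in opposite order, the transcripts with an adjacent row moving the other way and those whose 3-row sum stayed within 2-fold, which were 21, 11, 1, 4 and 13. Counts scaled to the smallest ESC library gave 11, 4, 0, 2 and 7. An upper limit of 200 gave 4, 2, 0, 1 and 3. Leaving out 1 ESC library at a time gave 59 to 112 transcripts, a larger count for each of the 6 ESC libraries and the largest without WT replicate 1, since a genotype then rests on a single library. Over all libraries left out in turn, in ESC or NPC, 11 to 55 pairs kept their order and 2 to 19 were opposite, and for ESC libraries 20 to 44 transcripts had an adjacent row moving the other way and 44 to 78 had sums within 2-fold. With 3 rows on either side the last 2 counts were 7 and 20, and with a log2 limit of 0.5 for the adjacent row 10 transcripts had one. DESeq2 called 3 pairs in NPC, while limma and every edgeR fit called 0. A lower limit of 0.1, the left-out stretches and TPM kept every count within 1.5 times.

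A fit with the replicate block called 0 pairs in NPC (lowest adjusted p = 0.527, 2 pairs at an unadjusted p under 0.05, against 6 without the block). Deviations of same-numbered replicates correlated at -0.0477 to 0.0621 across transcripts, so the numbers were not taken to pair the libraries. Low counts and 2 libraries a group limit what NPC can show.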
